A study of Homo sapiens with 8 samples.

Results

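Retinoic acid receptors, binding proteins and enzymes were followed in H9 human embryonic stem cells (hESCs) through 9 genes chosen by symbol, of 20344 symbols found in either of 2 tables. The 9 genes encode the retinoic acid receptors (RARA, RARB, RARG), their dimer partners (RXRA, RXRB), the cellular retinoic acid binding proteins (CRABP1, CRABP2), a retinoic acid hydroxylase (CYP26A1) and a retinal reductase (DHRS3). Poly-A RNA was sequenced in 8 libraries of 2 experiments, with 2 libraries in each of 4 groups. In the crowding experiment, cells at low density (labelled small) were compared with cells at high density (labelled crowded), in which the cells could attach only to islands of Matrigel, a basement membrane extract. In the knockdown (KD) experiment, cells carrying a control hairpin (shControl, labelled Ctrl) were compared with cells carrying a lentiviral hairpin against ETV4 (shETV4, labelled ETV4 KD), an ETS-family transcription factor. These comparisons asked which transcripts follow crowding and which follow the loss of ETV4. All 4 groups were H9 cells, an established line, grown on Matrigel in mTeSR1 or TeSR-E8 medium with no retinoid treatment named in the sources used here, and which of 2 ETV4 hairpins gave the sequenced RNA was not given there. The study speaks in general terms of experiments performed independently, but no source used here says of these libraries that they came from separate cultures, so the p-values measure the spread between these libraries, which may be technical.

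Retinoic acid is made from retinol in a first, reversible oxidation to retinal and a second, irreversible oxidation by retinaldehyde dehydrogenases. In the cell it is carried by CRABP proteins, either to CYP26 enzymes, which hydroxylate it for clearance, or to the nucleus, where it binds RAR-RXR heterodimers on DNA and exchanges corepressors for coactivators. It is best known in this setting as a signal that drives pluripotent cells out of self-renewal and that patterns the early nervous system along its long axis, and several genes that clear it or bind it, among them CYP26A1, RARB, CRABP2 and DHRS3, are known from other work to be switched on by it.

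RAR-RXR dimers bind pairs of a short half-site repeated in the same direction, best known with 5 bases between the repeats (a DR5 element). The promoter windows of all 9 genes, taken from RefSeq on GRCh38.p14 from 250 bases before to 50 bases after each start, were searched on both strands for such pairs. The half-sites searched were the consensus AGGTCA, its common variant AGTTCA, and the forms of these with a different first letter, namely GGGTCA for the former and GGTTCA for the latter. Only the windows of CYP26A1 and RARB held a DR5 pair. These sites are shown because they separate these 2 genes from the other 7, each as a stretch on the forward strand of GRCh37 with the half-sites in capitals.
CYP26A1: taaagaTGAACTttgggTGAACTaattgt
RARB: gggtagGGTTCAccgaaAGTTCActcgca
The CYP26A1 stretch is chr10:94833554-94833582 and its site lies 90 to 74 bases before the RefSeq start, with the motif on the minus strand, where it reads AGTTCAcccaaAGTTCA. The RARB stretch is chr3:25469695-25469723 and its site lies 53 to 37 bases before a RefSeq start, with the motif on the plus strand. GENCODE places both sites within an exon of other transcripts of the same gene. A DR5 pair was found in 31 of 35116 promoter windows (0.0883%), and pairs spaced by 2 bases and by 1 base were found in 14 windows (0.0399%) and 46 windows (0.131%), none of them in the 9 genes. A match describes letters in a window and does not show binding in these cells. The lack of a match does not show that a gene has no such element, since only these windows and these half-sites were searched.

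The libraries held 50359703 to 62410168 counts on genes, so counting error was small for all of the 9 genes except RARB. All 10 pluripotency markers looked for, POU5F1, NANOG and SOX2 among them, were in both tables, and their summed FPKM (fragments per kilobase of transcript, scaled to mapped reads) was 2541 and 2470 in the low-density libraries, 2665 and 2610 in the crowded ones, 2270 and 2458 in shControl and 2595 and 2663 in shETV4. POU5F1 was the largest part of these sums, and single markers did not all follow them. The log2 fold change was above 0 for 7 of the 10 in each experiment. NANOG was lower in both (-0.46 at high density and -0.44 after KD, under the size threshold of 0.5 used below). None was called at high density, while after KD LIN28A was called higher and TDGF1 lower. Neuroectoderm markers (7 of 8 symbols in each table, with SIX3 not in the crowding table and PAX6 not in the KD table) summed to 95.04 and 94.91 at low density and 81.66 and 70.45 at high density, and to 48.6 and 55.34 in shControl and 76.86 and 86.85 in shETV4. Mesendoderm markers (8 and 7 of 12 symbols) summed to 4.499 and 4.848 at low density and 1.289 and 1.153 at high density, and to 2.364 and 3.471 in shControl and 1.579 and 2.27 in shETV4. NES made up most of the neuroectoderm sum, and single markers did not all follow it. At high density NES and LHX2 were called lower and SOX1 higher. SOX1 had only 3 and 4 reads at low density and 20 and 18 reads at high density. LHX2 had 17 and 18 reads against 6 and 7. DESeq2 called 0 neuroectoderm markers higher there and 1 lower. OTX2 was at 10.73 and 11.24 FPKM in the low-density libraries and 18.18 and 13.39 FPKM in the crowded ones. After KD OTX2 was called higher (2.497 and 2.814 FPKM against 15.95 and 19.27). CER1 made up most of the mesendoderm sum in the low-density and shControl libraries and was called lower in both experiments, while GATA4 was called higher after KD (0.04424 and 0.07384 FPKM against 0.2041 and 0.2036). FOXA2, also at a low level, was called lower at high density (0.1804 and 0.281 FPKM against 0.02592 and 0.04026). SOX17 was in neither table, and EOMES and MESP1 were not in the crowding table, and GSC, FOXA2 and GATA6 were not in the KD table. Trophoblast and amnion markers (3 and 4 of 8 symbols) summed to 2.948 and 2.953 at low density and 3.9 and 4.328 at high density, and to 6.768 and 6.993 in shControl and 4.261 and 3.644 in shETV4, with TFAP2A, VTCN1 and CGA in neither table. KRT7 and GABRP made up most of these sums. None of these markers was called at high density, and GABRP was called lower after KD (log2 fold change -1.33, edgeR adjusted p = 0.00864). Each of these sums differed between the groups without overlap in both experiments. The FPKM of 70.2% of all genes tested in the crowding table and 63.3% in the KD table did so too. The part of these sums in the results that follow was not tested. In bulk RNA, fewer cells of a type and less RNA per cell cannot be told apart. Each gene listed in a table had at least 1 read in every one of its 4 libraries, so a symbol without a row may be low or absent in only some libraries.

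ETV4, the targeted gene, measured 90.76 and 95.08 FPKM in shControl and 45.61 and 40.92 FPKM in shETV4. It was 2.23-fold lower after KD (log2 fold change -1.15, SE 0.073, edgeR adjusted p = 0.00016). In the crowding table ETV4 measured 73.19 and 72.64 FPKM in the low-density libraries and 54.19 and 53.9 FPKM in the crowded ones, where its log2 fold change of -0.49 (edgeR adjusted p = 9.42e-07) was under the size threshold of 0.5 used below for calls.

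The 9 genes covered a wide range of levels, and their order was similar in the 4 groups. By FPKM, which is per transcript length, CRABP1 was highest in each group, followed by CRABP2 and then RARG. CRABP1 ranged from 63.44 to 128.5 FPKM over the 8 libraries, CRABP2 from 23.32 to 75.15 and RARG from 7.96 to 13.12, and within a group none of these overlapped its neighbour in the order. RXRA, RXRB, RARA and DHRS3 followed between 2.306 and 11.57 FPKM. At low density RXRA and DHRS3 overlapped, as did RARA and RXRB, and in shETV4 RARA and DHRS3 overlapped, so those neighbours did not differ beyond their spread. CYP26A1 came after these genes in every group, between 0.9886 and 2.357 FPKM. RARB was lowest, at 0.04593 to 0.08136 FPKM in the KD table, and had no row in the crowding table. The 2 tables were normalized separately, so levels set across them are values side by side and tests were made within a table.

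**Figure D1:**
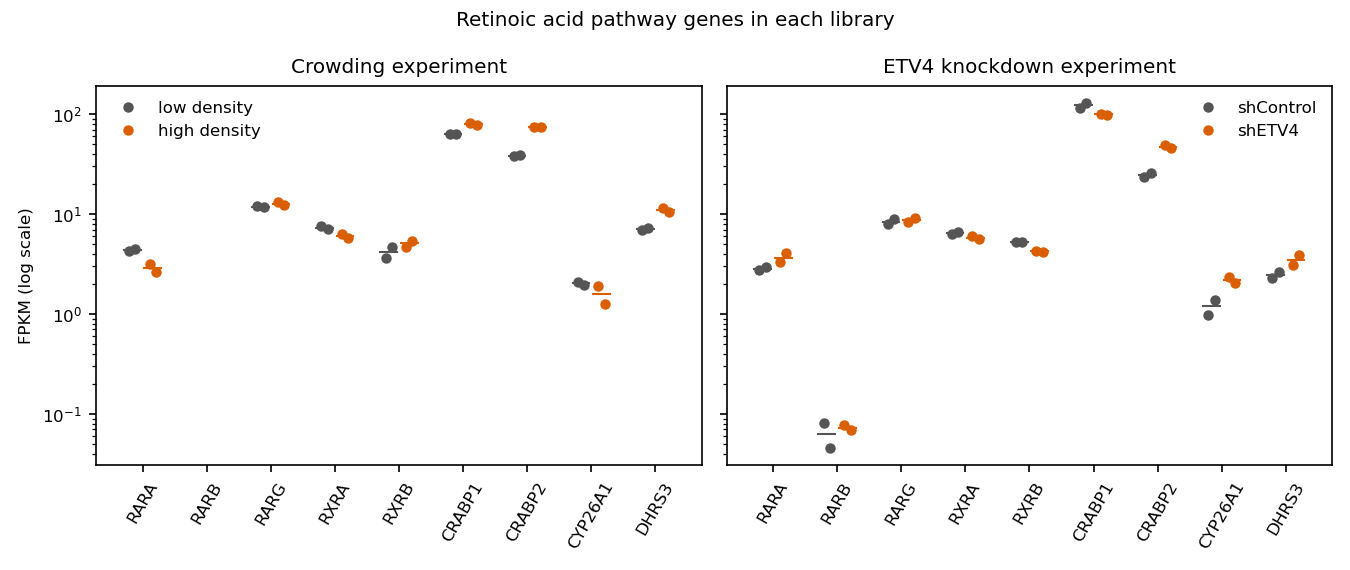
FPKM of each gene on a log axis, with the crowding experiment on the left and the KD experiment on the right, a point for each library and a short line at the mean of each group of 2. CRABP2 is higher in both libraries of the high-density and shETV4 groups than in their controls, CYP26A1 is higher in both shETV4 libraries and not at high density, and RARB has no row in the crowding table.

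A gene was called when edgeR's quasi-likelihood test gave a Benjamini-Hochberg adjusted p below 0.05 over all genes of its table and the absolute log2 fold change was over 0.5. At high density 2 of the 8 genes tested rose (CRABP2 and DHRS3), 1 fell (RARA) and 5 were not called. The called share was 37.5%, beside 16.1% of the 17672 genes tested in that table, where 10.7% were called higher and 5.47% lower. At an adjusted p below 0.05 with no threshold of size, 5 of the 8 passed (CRABP1 and RXRA in addition), beside 39.7% of all genes. After ETV4 KD 2 of the 9 genes tested rose (CRABP2 and CYP26A1) and 7 were not called, so no member was called lower by edgeR or DESeq2. CRABP1 was lower at an adjusted p below 0.05 in both and was under the size threshold, and 2 members were lower at an unadjusted edgeR p below 0.05. The called share after KD was 22.2%, beside 13.0% of 17879 genes, where 5.88% were called higher and 7.10% lower. With no threshold of size 3 of the 9 passed (CRABP1 in addition), beside 21.5% of all genes. The median log2 fold change of the tested members was 0.13 at high density and 0.17 after KD, beside 0.0032 and -0.0012 over all genes. FPKM did not overlap between the groups for 8 of 8 members in the crowding table, where 70.2% of all genes tested did not overlap, and for 7 of 9 in the KD table, where the figure was 63.3%.

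**Figure D2:**
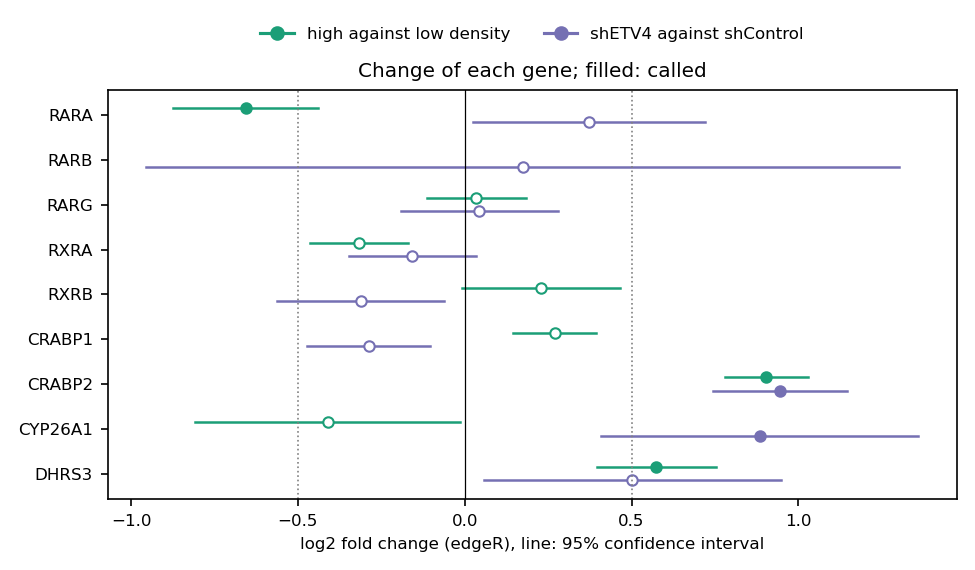
log2 fold change of each gene at high against low density and in shETV4 against shControl, with 95% confidence intervals as lines, filled points for called genes and dotted lines at the size threshold of 0.5. CRABP2 is called in both comparisons with nearly equal values, RARA and DHRS3 only at high density and CYP26A1 only after KD.

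Among the receptors, which are ligand-activated transcription factors, RARA was the one called, and at high density. RXRA passed the adjusted p there but not the size threshold. RARA was at 4.259 and 4.512 FPKM at low density and 3.151 and 2.654 FPKM at high density. Both crowded libraries were below both low-density libraries, and replicate 2 of the crowded group was the lowest. RARA fell 1.58-fold (log2 fold change -0.66, SE 0.10, edgeR adjusted p = 4.31e-05). On log2(FPKM + 1) with limma the difference was -0.47, under the size threshold. After ETV4 KD it was at 2.733 and 2.968 FPKM in shControl and 3.286 and 4.064 FPKM in shETV4, so the groups did not overlap and replicate 2 of shETV4 stood above the rest. The log2 fold change of 0.37 did not pass (95% confidence interval 0.025 to 0.72, edgeR adjusted p = 0.114). Without shETV4 replicate 1 it was 0.55 with an edgeR adjusted p of 0.00916, so this call rests on which library is kept. RARA overlaps the antisense gene RARA-AS1 at chr17:38465432-38513895 (GRCh37), and whether reads were counted by strand was not stated.

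RARG, the most abundant RAR here, was nearly level in both experiments. It was at 12.08 and 11.66 FPKM at low density and 13.12 and 12.19 FPKM at high density. The crowded libraries were marginally above the others, and the log2 fold change was 0.035 (95% confidence interval -0.11 to 0.18, edgeR adjusted p = 0.733). After KD, RARG was at 7.96 and 8.871 FPKM in shControl and 8.41 and 9.097 FPKM in shETV4, and the groups overlapped. The log2 fold change was 0.044 (95% confidence interval -0.19 to 0.28, edgeR adjusted p = 0.795), so both intervals lay within the size threshold.

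RARB, a receptor that retinoic acid itself induces in many cells and the holder of one of the DR5 sites shown above, was barely detected. Its read counts were 17 and 9 in shControl and 15 and 14 in shETV4. The groups overlapped, and with so few reads the log2 fold change of 0.17 had a 95% confidence interval from -0.95 to 1.30 (edgeR adjusted p = 0.829), so a change of the size seen for CRABP2 was not detectable at this depth.

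The proportions of the receptors differed between the groups of both experiments. RARG made up 73.9% and 72.1% of the summed RAR FPKM (RARA and RARG in this table) at low density and 80.6% and 82.1% at high density. In the KD table it made up 73.9% and 74.6% in shControl and 71.4% and 68.8% in shETV4. The share of RARG was thus higher in the crowded libraries and lower in the KD libraries than in their controls, without overlap, and these shares are a description with no test. The summed RAR FPKM was 16.34 and 16.17 at low density and 16.27 and 14.84 at high density, which overlapped, and 10.77 and 11.88 in shControl and 11.77 and 13.23 in shETV4, which also overlapped.

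RXRA and RXRB, the shared partners of RARs and several other nuclear receptors, were not called in either experiment. RXRA was at 7.518 and 7.031 FPKM at low density and 6.311 and 5.805 FPKM at high density. The crowded libraries were the lower ones, with a log2 fold change of -0.32 (SE 0.071, edgeR adjusted p = 0.00119) that was under the size threshold. After KD, RXRA was at 6.367 and 6.641 FPKM in shControl and 5.97 and 5.599 FPKM in shETV4, again with the treated libraries lower and a log2 fold change of -0.16 (95% confidence interval -0.35 to 0.032, edgeR adjusted p = 0.207). RXRB was at 3.628 and 4.659 FPKM at low density and 4.718 and 5.436 FPKM at high density. Replicate 1 of the low-density group stood lowest, and the log2 fold change was 0.23 (95% confidence interval -0.0088 to 0.47, edgeR adjusted p = 0.119). After KD, RXRB was at 4.26 and 4.194 FPKM against 5.261 and 5.246 FPKM in shControl, a log2 fold change of -0.31 (95% confidence interval -0.56 to -0.062, edgeR adjusted p = 0.0745). RXRB, at chr6:33161365-33168442, overlaps SLC39A7 on the other strand, so its counts are uncertain. The summed RXR FPKM lay between 11.03 and 11.69 in the 4 libraries of the crowding table, where the groups overlapped, and was 11.63 and 11.89 in shControl and 10.23 and 9.793 in shETV4, where they did not. RXRA made up 67.4% and 60.1% of that sum at low density and 57.2% and 51.6% at high density, and 54.8% and 55.9% in shControl and 58.4% and 57.2% in shETV4. Its share was thus lower in the crowded libraries and higher in the KD libraries than in their controls, without overlap. These shares too are a description with no test, and they rest on the uncertain counts of RXRB.

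CRABP2, which passes retinoic acid to RARs in the nucleus, was the member that rose in both experiments, by nearly the same amount. It was at 37.86 and 39.09 FPKM at low density and 74.84 and 75.15 FPKM at high density. The crowded libraries were far above the others, with replicates of a group differing by little. CRABP2 rose 1.87-fold (log2 fold change 0.90, SE 0.060, edgeR adjusted p = 3.24e-10). After ETV4 depletion the values were 23.32 and 25.62 FPKM in shControl and 48.77 and 45.46 FPKM in shETV4, again without overlap. It rose 1.93-fold (log2 fold change 0.94, SE 0.088, edgeR adjusted p = 0.000733). With each library left out in turn the log2 fold change stayed between 0.89 and 0.93 at high density and between 0.89 and 1.00 after KD, and CRABP2 was called each time. The gene lies at chr1:156669398-156675608 on the minus strand.

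CRABP1, its paralog, is more often described as holding retinoic acid in the cytoplasm and passing it to clearance. It was at 63.44 and 63.53 FPKM at low density and 80.74 and 78.48 FPKM at high density. The crowded libraries were higher, by a log2 fold change of 0.27 (SE 0.060, edgeR adjusted p = 0.00126) that was under the size threshold. In the KD experiment it was at 115.6 and 128.5 FPKM in shControl and 100.4 and 98.88 FPKM in shETV4. There the treated libraries were lower, by a log2 fold change of -0.29 (SE 0.081, edgeR adjusted p = 0.0375), also under the size threshold. Without shControl replicate 1 or 2 the edgeR adjusted p was 0.12 or 0.384. The 2 differences have opposite signs, and the difference between the experiments was not tested.

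CRABP2 made up more of the binding protein pair in the treated libraries of both experiments. The ratio of CRABP2 to CRABP1 FPKM was 0.597 and 0.615 at low density and 0.927 and 0.958 at high density. It was 0.202 and 0.199 in shControl and 0.486 and 0.46 in shETV4. In both experiments the treated libraries had the higher ratio without overlap, and the ratio within a library does not depend on how libraries were scaled. The sum of the pair was 101.3 and 102.6 FPKM at low density and 155.6 and 153.6 FPKM at high density, a clear separation. In the KD experiment the sum was 138.9 and 154.1 FPKM in shControl and 149.1 and 144.3 FPKM in shETV4, with the shETV4 values between the shControl values. At high density the pair was thus more abundant with a larger share of CRABP2, and after KD it was similar in sum with a larger share of CRABP2.

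**Figure D3:**
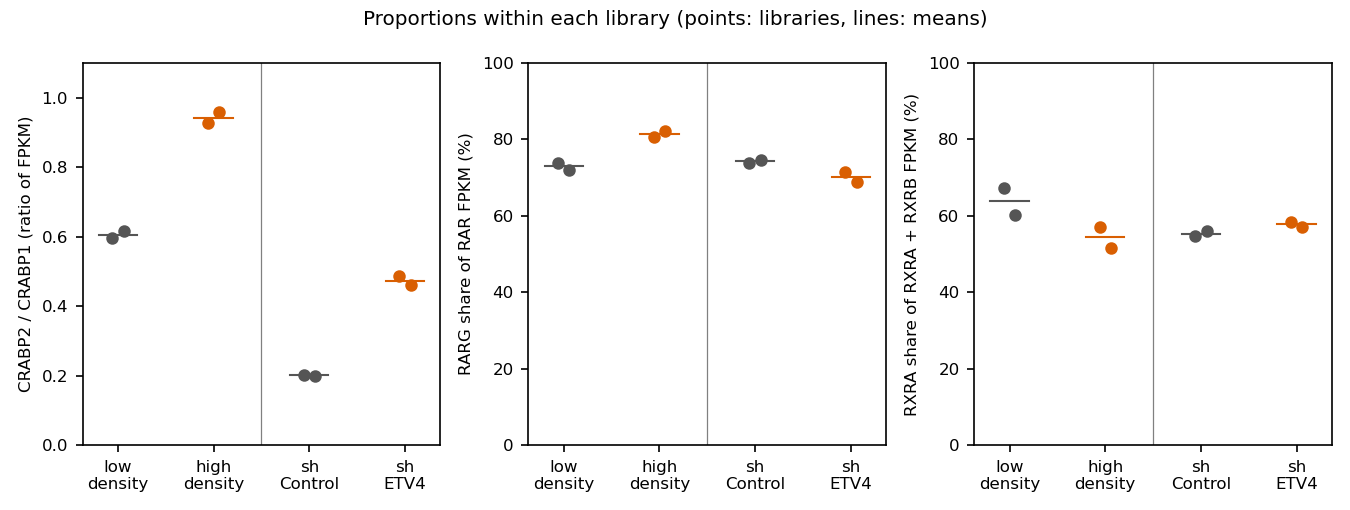
Ratio of CRABP2 to CRABP1 FPKM (left), share of RARG in the summed RAR FPKM (middle, percent) and share of RXRA in the summed RXR FPKM (right, percent), with a point for each library and a line at the mean of each of the 4 groups. The ratio is 0.927 and 0.958 at high density and 0.486 and 0.46 in shETV4, above the control libraries of each table, while the share of RARG is higher at high density and lower in shETV4 than in the controls.

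CYP26A1, which hydroxylates all-trans retinoic acid and is among the most sensitive retinoic acid target genes, rose after ETV4 KD but not at high density. It was at 0.9886 and 1.397 FPKM in shControl and 2.357 and 2.029 FPKM in shETV4, or 136 and 174 reads against 316 and 255 reads. Both shETV4 libraries were above both shControl libraries, and shControl replicate 1 was the lowest. CYP26A1 rose 1.85-fold (log2 fold change 0.88, SE 0.21, edgeR adjusted p = 0.0207). Without shControl replicate 1 the log2 fold change was 0.68 and the call was lost (edgeR adjusted p = 0.138). In the crowding experiment it was at 2.103 and 1.957 FPKM at low density and 1.893 and 1.246 FPKM at high density. The crowded libraries were lower, replicate 2 more so than replicate 1, and the log2 fold change of -0.41 did not pass (95% confidence interval -0.81 to -0.013, edgeR adjusted p = 0.0942). Without high-density replicate 1 it was -0.74 (edgeR adjusted p = 0.00152) and would have been called lower. The gene lies at chr10:94833232-94837642 on the plus strand and overlaps ENSG00000285846, which is not protein-coding, on the same strand. How reads in this overlap were counted was not stated. The DR5 site of CYP26A1 is the first one printed above. RARB holds the other one, and no change of RARB was called after KD. With 17 and 9 reads of RARB in shControl and 15 and 14 in shETV4, a change like that of CYP26A1 was not detectable. The 2 genes can therefore not be compared there.

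DHRS3, which reduces retinal back to retinol and so limits how much retinoic acid can be made, rose at high density. It was at 6.876 and 7.291 FPKM at low density and 11.57 and 10.56 FPKM at high density. The crowded libraries stood well above the others without overlap. DHRS3 rose 1.49-fold (log2 fold change 0.57, SE 0.085, edgeR adjusted p = 2.12e-05), and without high-density replicate 1 the log2 fold change was 0.48, under the size threshold. In the KD experiment it was at 2.306 and 2.603 FPKM in shControl and 3.084 and 3.932 FPKM in shETV4. Both shETV4 libraries were higher, replicate 2 more so, but the log2 fold change of 0.50 did not pass (95% confidence interval 0.057 to 0.95, edgeR adjusted p = 0.101). Without shETV4 replicate 1 it was 0.72 (edgeR adjusted p = 0.00841) and would have been called. The gene lies at chr1:12627939-12678216 on the minus strand, and none of its 3 promoter windows held a DR5 pair.

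Of the enzyme pair, DHRS3 thus rose where CYP26A1 did not, and CYP26A1 rose where DHRS3 was not called. The ratio of DHRS3 to CYP26A1 FPKM was 3.27 and 3.73 at low density and 6.11 and 8.48 at high density. It was 2.33 and 1.86 in shControl and 1.31 and 1.94 in shETV4. The ratio was higher in the crowded libraries without overlap, while the groups of the KD experiment overlapped. Whether the response of either enzyme differed between the experiments was not tested.

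**Figure D4:**
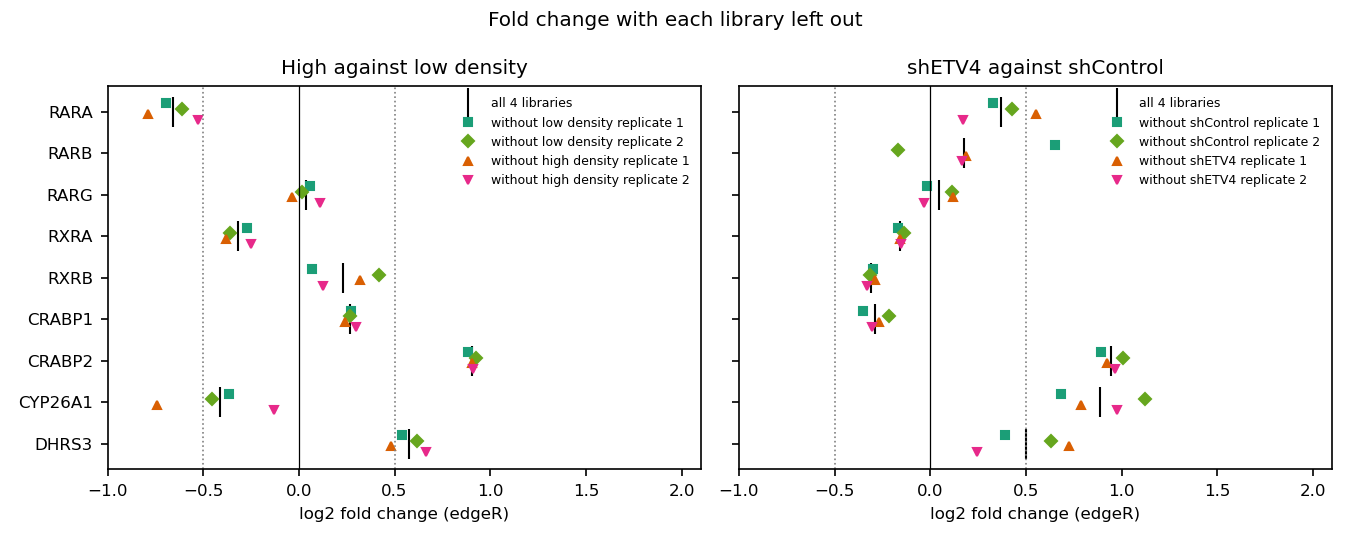
log2 fold change of each gene with all libraries and with each library left out in turn, for high against low density (left) and for shETV4 against shControl (right), with a vertical tick for all 4 libraries, a marker for each library left out and dotted lines at the size threshold of 0.5. CRABP2 is past the threshold in each fit, while the calls of CYP26A1 and DHRS3 in both comparisons and of RARA after KD change with 1 library.

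The other genes of the pathway were read from a list of 60 symbols. At high density 44 of them were tested, 6 were called higher and 3 lower, a share of 20.5% beside 16.1% of all genes, and the list's median log2 fold change was -0.027. Of 12 tested genes listed as retinol and retinal enzymes, 1 rose and 1 fell. DHRS4, a retinal reductase with near-identical copies that make its counts uncertain, was at 10.6 and 8.815 FPKM at low density and 6.673 and 6.494 FPKM at high density (log2 fold change -0.61, SE 0.12, edgeR adjusted p = 0.000291). Without low-density replicate 1 its log2 fold change was -0.47, under the size threshold. ALDH1A1, a retinaldehyde dehydrogenase, rose from a low level, from 0.2563 and 0.2508 to 0.5734 and 0.5204 FPKM (log2 fold change 1.05, SE 0.30, edgeR adjusted p = 0.00793). The other enzymes that make retinoic acid were not called. ALDH1A3 was the most abundant of the ALDH1A genes, at 3.53 and 3.638 FPKM at low density and 2.947 and 3.166 FPKM at high density (log2 fold change -0.29, under the size threshold). ALDH1A2, the main such enzyme of the early embryo, was at or below 0.09188 FPKM in each library of this table. Its log2 fold change of 1.38 did not pass (edgeR adjusted p = 0.084), and it was called higher without low-density replicate 1 (2.50) or without high-density replicate 2 (1.80). RDH5, a retinol dehydrogenase, had only 27 and 37 reads at low density and 35 and 9 reads at high density. It was called lower without high-density replicate 1 (log2 fold change -2.05). RDH10, which makes retinal from retinol, had a log2 fold change of 0.029 (edgeR adjusted p = 0.896).

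Of 8 tested genes that store, carry or bind retinoids, 2 rose and 1 fell at high density. RBP7, a retinol binding protein, was at 2.662 and 3.799 FPKM at low density and 5.728 and 5.627 FPKM at high density (log2 fold change 0.76, SE 0.20, edgeR adjusted p = 0.0053). Unlike that of CRABP2, the call of RBP7 was lost with a library left out, namely low-density replicate 1 (log2 fold change 0.53, edgeR adjusted p = 0.12). FABP5, a fatty acid binding protein that can also carry retinoic acid, fell from 230.3 and 237.3 to 165.5 and 149.5 FPKM (log2 fold change -0.63, SE 0.062, edgeR adjusted p = 9.98e-08), and its pseudogene copies make its counts uncertain. LRAT, which esterifies retinol for storage, had a log2 fold change of 0.30 that was under the size threshold, and STRA6, the retinol uptake receptor, one of -0.039 (edgeR adjusted p = 0.855).

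None of 13 tested corepressors and coactivators was called at high density by edgeR or DESeq2, although 6 of them passed the adjusted p and were under the size threshold (NCOA1, NCOA3 and TRIM24 higher, and HDAC3, CREBBP and NRIP1 lower). NRIP1, a ligand-dependent corepressor, had a log2 fold change of -0.48 and was called lower without low-density replicate 2 (-0.51) and without high-density replicate 2 (-0.50). Of 10 tested nuclear receptors other than RARs that pair with RXR, 3 rose (PPARA, THRB and NR4A1) and 1 fell (VDR). NR4A1, an orphan receptor, was the only one of the 4 with a mean of at least 1 FPKM, at 2.969 and 3.252 FPKM at low density and 3.703 and 4.768 FPKM at high density (log2 fold change 0.51, SE 0.11, edgeR adjusted p = 0.00124). Its call was lost without low-density replicate 1 (0.43), without high-density replicate 2 (0.35) and with limma on FPKM, in each case under the size threshold. NR4A2 was called lower without high-density replicate 1 (log2 fold change -1.59). CYP26B1, the other clearance enzyme tested, was at 0.02544 to 0.06394 FPKM and was not called, and CYP26C1 and RXRG were in neither table. The count of called pathway genes depended on the method, being 4 or 5 with limma on FPKM, with FABP5, PPARA and RBP7 among them each time.

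After ETV4 KD the same list gave 1 gene called higher and none lower of 45 tested, a share of 2.22% beside 13.0% of all genes, and its median log2 fold change was 0.034. By DESeq2 too 1 was called higher and 0 lower, and at an unadjusted edgeR p below 0.05, 4 were higher and 7 lower. At an adjusted p below 0.05 with no threshold of size 4 of them passed, namely RDH11, THRA, THRB and TRIM24. THRB, a thyroid hormone receptor that pairs with RXR, was at 0.6384 and 0.4981 FPKM in shControl and 1.722 and 2.094 FPKM in shETV4 (log2 fold change 1.74, SE 0.17, edgeR adjusted p = 0.000873). The enzymes that make retinoic acid were not called. ALDH1A1 was at 0.8118 and 0.843 FPKM in shControl and 0.5935 and 0.2709 FPKM in shETV4 (log2 fold change -0.92, edgeR adjusted p = 0.0907). It was called lower with the replicate number as a block (-0.98, edgeR adjusted p = 0.014) and without shETV4 replicate 1 (-1.55, edgeR adjusted p = 0.00551). PPARA and THRA were also called lower without shETV4 replicate 1 (-0.67 and -0.54), and RDH5 higher without shControl replicate 2 (2.20). RDH5 had only 7 and 20 reads in shControl and 40 and 23 reads in shETV4. ALDH1A2, ALDH1A3 and RDH10 had log2 fold changes of 0.53, 0.047 and 0.085 with edgeR adjusted p of 0.436, 0.8 and 0.692. LRAT, STRA6 and CYP26B1 were not called either, with log2 fold changes of 0.034, -0.094 and -0.998. So the rise of CRABP2 and CYP26A1 after KD stood beside few called changes elsewhere in the pathway with all libraries kept.

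**Figure D5:**
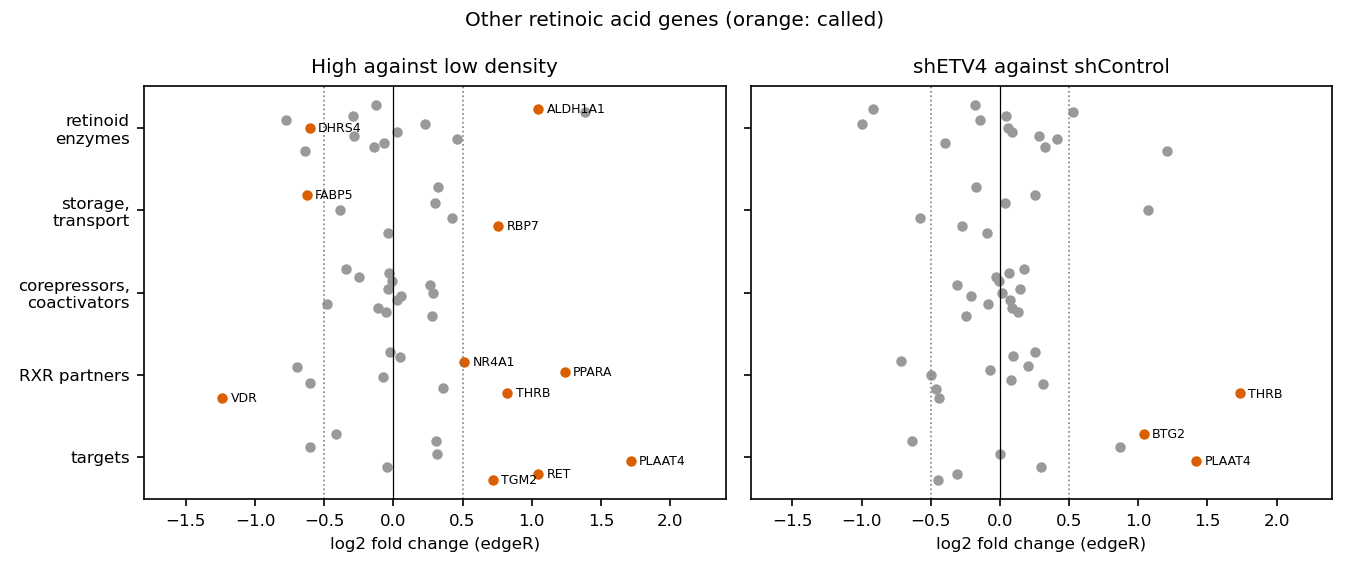
log2 fold change of the tested genes of the pathway list, by role and with 1 gene left out, and of the target list, at high against low density and in shETV4 against shControl, with called genes in orange and named, other genes in grey, dotted lines at the size threshold of 0.5 and CYP26B1 plotted with the other enzymes. Over the whole pathway list 9 of 44 genes are called at high density and 1 of 45 after KD.

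Known retinoic acid target genes were read from a list of 29 symbols (PLAAT4 also under an older symbol), of which 11 were in each table and 8 were tested. Most of the symbols without a row were HOX genes. At high density 3 of the 8 rose (RET, TGM2 and PLAAT4), a share of 37.5% beside 16.1% of all genes, and the median log2 fold change was 0.31. None was called lower by edgeR or DESeq2, or was lower at an unadjusted p below 0.05. BTG2 had a log2 fold change of -0.42 (edgeR adjusted p = 0.126), and was called lower without high-density replicate 2 (log2 fold change -0.75). RET, a receptor tyrosine kinase, was at 2.136 and 1.983 FPKM at low density and 4.191 and 4.346 FPKM at high density (log2 fold change 1.05, SE 0.088, edgeR adjusted p = 1.21e-08). TGM2 and PLAAT4 had means under 1 FPKM over the 4 libraries of that table. TGM2, with a log2 fold change of 0.72, lost its call with DESeq2 (adjusted p = 0.0849), with limma on all genes, without low-density replicate 1 (0.75, edgeR adjusted p = 0.0934) or 2 (0.68, edgeR adjusted p = 0.126) and without high-density replicate 2 (0.57, edgeR adjusted p = 0.146). After KD 2 of 8 rose (PLAAT4 and BTG2), a share of 25% beside 13.0% of all genes, and the median log2 fold change was 0.15. None was called lower by edgeR or DESeq2, and 4 of the 8 had a log2 fold change above 0. RET and TGM2, which rose at high density, were at -0.31 and -0.45 after KD (edgeR adjusted p = 0.115 and 0.19). Of the 8, RET was the 1 that was lower at an unadjusted edgeR p below 0.05. PLAAT4, a phospholipase first described as a retinoid-responsive gene, was at 0.5815 and 0.8348 FPKM in shControl and 1.587 and 2.192 FPKM in shETV4 (log2 fold change 1.42, SE 0.33, edgeR adjusted p = 0.0202). BTG2, an antiproliferative gene that other signals also induce, was at 3.039 and 2.507 FPKM in shControl and 5.953 and 5.427 FPKM in shETV4 (log2 fold change 1.04, SE 0.14, edgeR adjusted p = 0.0027). PLAAT4 lost its call after KD without shControl replicate 1 (log2 fold change 1.2) or without shETV4 replicate 2 (1.14), which left BTG2 alone, and RARRES2 was called higher without shETV4 replicate 1 (0.52). PLAAT4 was at 0.3211 and 0.5092 FPKM at low density and 1.363 and 1.522 FPKM at high density, so of the 8 targets tested it was the one called higher in both experiments.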

How the data were processed

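The authors prepared stranded poly-A libraries, sequenced paired reads of 100 bases, trimmed them with Trimmomatic, mapped them to GRCh37 with HISAT2 2.1.0 and assembled known transcripts with StringTie 2.1.3b. They deposited 1 table per experiment with read counts per gene, not normalized, and FPKM per gene, normalized by the authors for length and mapped reads. The authors' fold changes and p-values in these tables, and 16 further per-sample columns, were not used. The counts (50359703 to 62410168 per library) were tested within each table, 2 libraries against 2, by the robust quasi-likelihood test of edgeR 4.0.16 (R 4.3.3) after filterByExpr and TMM, with Benjamini-Hochberg adjustment over 17672 and 17879 genes. The SE was taken from the F statistic and the size of the fold change. Alternatives used DESeq2 1.42.0, limma 3.58.1 on log2 FPKM, other filters and scalings, a replicate block and each library left out. The procedure was tried on simulated data. Other genes were named where called with a mean of at least 1 FPKM, or for making, feeding or clearing retinoic acid, and all others named were chosen after their values were seen. The members and lists were chosen with earlier results of these data known. Promoter windows come from RefSeq and positions from GENCODE on GRCh37. Results for 1 gene of the pathway list are not reported here, although the list's counts include it.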

Additional observations from a re-analysis of the deposited data

How the results depend on the processing

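With 2 libraries a group, the spread between replicates limits the results for the 9 genes more than depth does, except for RARB. Among the other genes, ALDH1A2 and RDH5 had few reads, as did PLAAT4 (14 and 27 at low density, 65 and 83 at high density). The member fits kept direction and call in 224 of the alternatives computed, lost the call in 3, gained it in 3 and turned direction in 4. The count of called members at high density, 3, became 0 at an absolute log2 fold change over 1 and 5 at an adjusted p below 0.05 alone, where 39.7% of all genes passed. After KD the count of 2 became 0 at over 1, and ranged from 1 (without shControl replicate 1) to 4 (without shETV4 replicate 1, adding RARA and DHRS3) with a library left out. Over all genes, calls after KD ranged from 1587 to 3390 in those same fits. The count of called pathway genes at high density, 9, became 5 with limma on log2(FPKM + 0.5), with a pseudocount of 0.1 and with all genes, 4 with a pseudocount of 1, 3 at over 1 and 20 at adjusted p alone. After KD the pathway count of 1 became 3 with total counts alone, 3 with the replicate block and 4 at adjusted p alone, and ranged from 1 to 4 with a library left out. The target count after KD, 2, ranged from 1 to 3 with a library left out. With a library left out RARG ranged from -0.039 (without high-density replicate 1) to 0.11 at high density and from -0.032 (without shETV4 replicate 2; -0.018 without shControl replicate 1) to 0.12 after KD, and RARB from -0.17 (without shControl replicate 2) to 0.65. The cause of these changes was not tested. Replicates with the same number did not deviate together across genes (correlations of -0.041 and 0.086). With 2 libraries a group this cannot show whether they shared a batch. With the replicate block 3 members were called at high density and 2 after KD. Over all genes 2874 and 2901 were called with the block, beside 2851 and 2321 without it. With the block RARA, RXRB and DHRS3 after KD had edgeR adjusted p of 0.0201, 0.0247 and 0.0125, with log2 fold changes under the size threshold.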

Other observations

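For CYP26A1 and DHRS3, the genes of most similar pattern were sought by Pearson's correlation of log2 scaled counts (TMM, prior count 2) over the 8 libraries, each centred on its own table, among 12474 genes with a mean of at least 1 FPKM in both tables. The libraries share depth and treatment, so the values are a description with no test. The 5 genes closest to CYP26A1 were SRSF11P1 (0.98), DGCR8 (0.977), BEND3 (0.975), SLC25A23 (0.974) and NEK8 (0.972). DGCR8, a partner of the microRNA-processing enzyme DROSHA, had log2 fold changes of -0.17 at high density and 0.38 after KD, smaller than those of CYP26A1 in both. The 5 genes closest to DHRS3 were BCKDK (0.996), RNF5 (0.989), KLHL17 (0.988), ABTB1 (0.988) and AMDHD2 (0.988). AMDHD2, an enzyme of amino sugar metabolism, had log2 fold changes of 0.54 at high density and 0.46 after KD, nearest in size to DHRS3 among the 5. None of these 10 genes is a member of the retinoic acid lists.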
